A study of Mus musculus with 2 samples.

Results

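Transcripts of 10 genes were followed through the cell types of mouse lungs injured with bleomycin: *Cdkn1a*, *Mdm2*, *Ccng1*, *Phlda3*, *Gdf15*, *Trp53inp1*, *Bax*, *Eda2r* and *Zmat3*, which are established targets of the tumour suppressor p53, and *Cdkn2a*, a marker of senescence. They were chosen by gene symbol and all 10 were found among the 31053 genes of both count matrices. The data are 2 droplet-based single-cell RNA sequencing libraries, 1 of *Pclaf* WT and 1 of *Pclaf* KO mice aged 8 to 10 weeks, with cells taken 1 week after bleomycin at 1.35 U/kg, the dose given in the deposited design. The KO is a germline deletion of *Pclaf*, and both groups were sorted for epithelial cells (CD31-, CD45- and EPCAM+). Bleomycin was given to both groups and no uninjured library was analysed here, so the levels below describe injured lungs and not a change from baseline. With 1 library per genotype and an unstated number of animals in it, no test was possible, and each ratio of KO to WT compares 2 libraries and not 2 genotypes.

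Bleomycin breaks DNA, and broken DNA stabilizes p53, a transcription factor that switches on genes of cell-cycle arrest, repair, feedback and cell death. One of these, *Cdkn1a*, encodes p21, which blocks the cyclin-dependent kinases and thereby favours the repressive DREAM complex over the transcription of cell-cycle genes, the same complex that *Pclaf* acts on. In the injured alveolus, surfactant-producing AT2 cells can turn into the flat gas-exchanging AT1 cells through a Krt8+ transitional state, which is known for p53 activity and for markers of senescence.

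The WT library held 98171818 UMIs (unique molecular identifiers, 1 per captured transcript) on 30669 barcodes and the KO library 111267567 UMIs on 17172 barcodes, in both cases more barcodes than cells that the labels say were loaded. Of these, 30187 WT and 15637 KO cells were kept, with a median of 2127 and 5957 UMIs. *Pclaf* itself, the check of the labels, had 3763 UMIs (39.3 CPM, counts scaled to 1000000 UMIs) in the kept WT cells and 529 UMIs (5.19 CPM) in the kept KO cells, so its transcripts were present in the library labelled KO. The gap was narrower in AT2-like (13.7 and 6.59 CPM), endothelial-like (9.58 and 4.77 CPM) and cycling non-epithelial-like cells (580 and 336 CPM), of which last KO had 11. It was wider than in these in fibroblast-like (16.7 and 4.19 CPM) and T/NK cell-like cells (19.5 and 4.34 CPM). AT1-like cells had 7 *Pclaf* UMIs in WT and 0 in KO. Although both samples were sorted for epithelium, only 5.49% of kept WT cells took an epithelial name against 70.9% of KO cells. Both libraries held *Xist* (254 and 498 CPM) and the Y-linked *Ddx3y* (74.0 and 24.0 CPM), while the methods describe male mice. They shared 163 barcodes, 138 of them kept.

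Cells were clustered without the members and the other listed genes and were named by markers, so each class is called by its likeness. The other lists held p53 targets and regulators, inhibitors of cyclin-dependent kinases, senescence genes, the BCL2 family with caspases, and nuclear-retained RNAs. Cell-cycle genes had no list of their own, and a cluster led by *Top2a*, *Pclaf* and *Mki67* formed. The part of cell-cycle genes in the clustering was not tested. The Krt8+-like class had 274 WT and 1635 KO cells and a UMI of all 10 of its markers in both libraries (Krt8 at 1400 and 1154 CPM), as AT1-like and fibroblast-like cells also had. These markers summed to 4540 and 3942 CPM, against 581 and 483 CPM in AT2-like and 2905 and 4561 CPM in AT1-like cells. The larger cluster of the class scored 3.87 for them and 3.53 for AT2 markers (mean log2 over the median cluster). *Sftpc*, *Sftpd* and *Sftpa1* were among its leading genes. AT2-like cells numbered 592 and 6747, with *Sftpc*, the surfactant protein C gene, at 134800 and 163422 CPM, and AT1-like cells 489 and 422. Levels are UMIs summed over a class, scaled to 1000000 UMIs of that class. Brackets hold 95% intervals (exact Poisson for levels, exact conditional Poisson for log2 ratios, Clopper-Pearson for shares), which cover counting error only. A ratio was counted as past the threshold at 2-fold, where the gene had at least 50 UMIs in the cells compared.

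The starts of several members carry matches to the half-site that p53 binds, and these are shown because p53 is the factor the list is named for. RefSeq promoters (GRCm38.p6) were found for 8 of the 10 members, 11 promoters in all, each from 250 bases before to 50 bases after a start. The p53 half-site consensus, which reads the same on both strands, was searched in them and had a match in 8.36% of all 32817 promoters of this length. A pair of half-sites at most 13 bases apart with at most 2 mismatches occurred in 4.09% of promoters, and a pair without mismatch in 24 promoters (0.0731%). The 250 bases before the start are printed for the 4 member promoters with a half-site, in the direction of transcription. Half-sites are in capitals, as is the mismatched partner in the pair with fewest mismatches.
*Cdkn1a*, chr17:29090729-29090978, plus strand: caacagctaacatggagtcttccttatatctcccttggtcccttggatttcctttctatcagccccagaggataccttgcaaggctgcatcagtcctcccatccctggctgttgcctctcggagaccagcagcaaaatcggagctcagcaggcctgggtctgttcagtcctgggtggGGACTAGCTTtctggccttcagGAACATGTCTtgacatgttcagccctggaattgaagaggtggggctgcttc
*Ccng1*, chr11:40755287-40755536, minus strand: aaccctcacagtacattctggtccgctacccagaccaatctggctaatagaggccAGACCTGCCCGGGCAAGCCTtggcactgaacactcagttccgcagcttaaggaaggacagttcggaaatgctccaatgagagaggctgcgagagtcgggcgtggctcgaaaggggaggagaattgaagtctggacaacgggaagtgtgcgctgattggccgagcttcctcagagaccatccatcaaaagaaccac
*Bax*, chr7:45466899-45467148, minus strand: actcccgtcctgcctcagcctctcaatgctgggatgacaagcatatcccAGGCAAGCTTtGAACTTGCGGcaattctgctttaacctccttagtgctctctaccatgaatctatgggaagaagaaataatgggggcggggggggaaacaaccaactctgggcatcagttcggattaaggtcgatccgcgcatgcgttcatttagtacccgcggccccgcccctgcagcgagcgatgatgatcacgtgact
*Mdm2*, chr10:117710759-117711008, minus strand: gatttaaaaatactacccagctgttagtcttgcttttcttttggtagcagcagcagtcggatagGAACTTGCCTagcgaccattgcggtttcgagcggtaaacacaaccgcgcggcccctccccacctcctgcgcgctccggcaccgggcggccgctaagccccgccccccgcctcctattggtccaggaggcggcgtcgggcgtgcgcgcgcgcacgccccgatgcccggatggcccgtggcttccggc
The *Cdkn1a* promoter was 1 of the 24 with a pair free of mismatch, with half-sites that began 73 and 51 bases before the start and lay 12 bases apart. The bases right after the second of these form an adjoining partner with 1 mismatch, left in lower case because only the pair with fewest mismatches is marked. *Ccng1* had an adjoining pair with 1 mismatch, which began 195 bases before the start. *Bax* had a pair with 2 mismatches and a gap of 1 base, and *Mdm2* a single half-site. The other 7 promoters, a second one of *Cdkn1a*, the 2 of *Cdkn2a*, the 2 of *Gdf15* and those of *Eda2r* and *Phlda3*, held no half-site in this window, which says nothing of binding elsewhere. A match is a description of letters and not a measured site.

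In both libraries the members were highest in Krt8+-like cells, with few exceptions, and far above their level in AT2-like cells. All 8 members with enough UMIs were past 2-fold higher in Krt8+-like than in AT2-like cells of the WT library, beside 19.5% of the 7935 genes tested. In the KO library the same 8 were past 2-fold higher, beside 26.1% of 13051 genes. *Eda2r* and *Cdkn2a* were too, but they reached 50 UMIs through the Krt8+-like cells, so their count adds nothing. The median log2 ratio of the 8 members in WT was 3.02, against 0.38 over all genes (0.49 in KO). AT2 surfactant transcripts take up much of an AT2-like cell's UMIs, and the scale moves all ratios together. Under TMM scaling every log2 ratio was lower by 0.53 in WT and 0.61 in KO, where all members stayed above 0 and *Zmat3* in KO, at 0.90, was no longer past 2-fold.

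**Figure D1:**
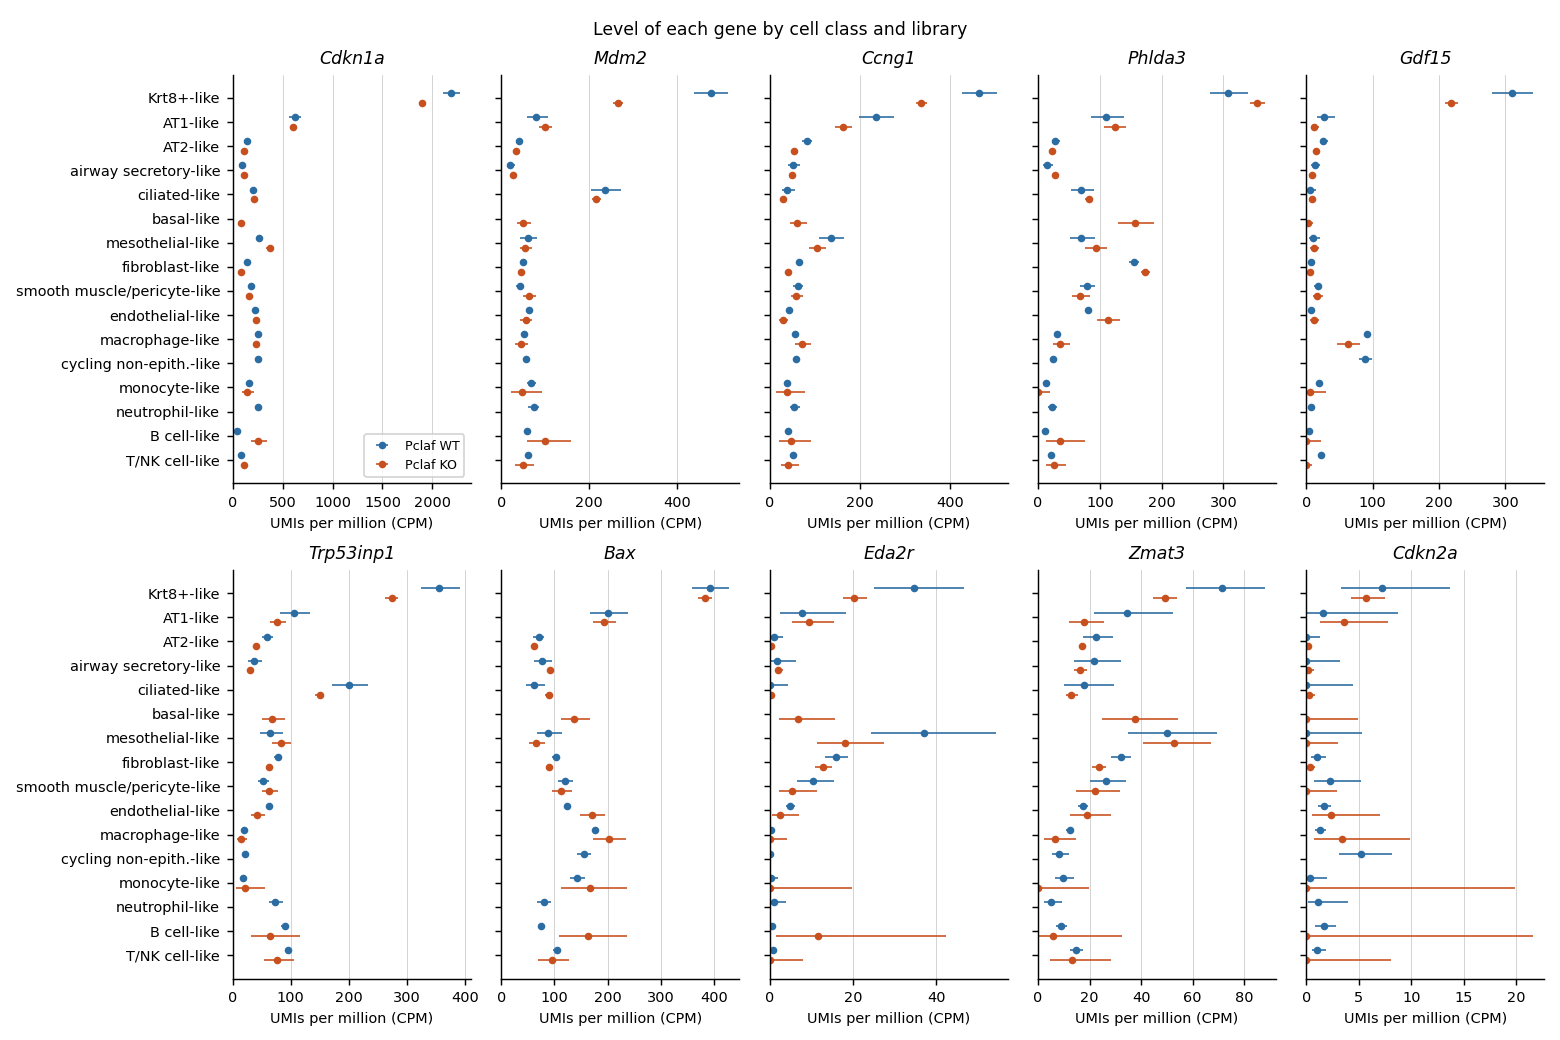
Level of each of the 10 genes in CPM (horizontal axis) in the named classes with at least 50 cells (rows), *Pclaf* WT in blue and *Pclaf* KO in orange, with 95% Poisson intervals of counting error. Krt8+-like cells were the highest class in both libraries for 8 of the genes, while mesothelial-like cells were level with them for *Eda2r* and *Zmat3*.

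*Cdkn1a* (p21, the inhibitor of cyclin-dependent kinases, 17:29090976-29100727 on the plus strand of GRCm38, as for all positions here) reached 2190 CPM (2109 to 2274) in WT and 1895 CPM (1867 to 1923) in KO Krt8+-like cells. AT2-like cells held 141 CPM (WT) and 108 CPM (KO), which gives log2 ratios of 3.96 (3.81 to 4.12) and 4.13 (4.09 to 4.18). AT1-like cells came next with 622 and 607 CPM, above mesothelial-like cells at 265 and 369 CPM, and neither step had overlapping intervals. Below these the intervals of most neighbouring classes overlapped, and the lowest levels were 43.4 CPM in WT B cell-like and 78.6 CPM in KO fibroblast-like cells.

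Among cells of at least 1000 UMIs, thinned to equal depth, most Krt8+-like cells and a minority of every other class carried a *Cdkn1a* transcript. With each cell thinned to 1000 UMIs, 69.0% of WT cells (62.8 to 74.7) and 61.5% of KO cells (59.0 to 64.0) held one, after 26 and 158 shallower cells were left out. The same share was 25.2% and 29.4% in AT1-like and 8.88% and 8.01% in AT2-like cells. In AT1-like cells 342 of 489 WT and 116 of 422 KO cells were too shallow, so these shares are of the deeper cells. Also too shallow were 2869 of 8905 endothelial-like and 1725 of 3455 fibroblast-like cells of WT. In B cell-like cells it was 3.33% (WT) and 4.76% (KO, 3 of 63 cells), where the WT level of *Cdkn1a* was lowest. The KO level of that class (252 CPM) rested on 1 cell with 35 of the 43 UMIs and was 50.3 CPM without it. The thinned shares are of 1 random draw, and their intervals leave out variation between draws. In a separate draw, 157 WT Krt8+-like cells held a *Cdkn1a* UMI and 91 did not, against 922 and 555 KO cells. Of the WT AT2-like cells in that draw, 63 held one and 489 did not. Without thinning the share in Krt8+-like cells was 78.5% and 78.2%, at median depths of 3782 and 5002 UMIs, and 7.72% and 6.06% in B cell-like cells at 1914 and 2248 UMIs. Unthinned shares also passed 50% in macrophage-like cells (50.4% and 61.0%), WT cycling non-epithelial-like cells (64.4%) and KO ciliated-like cells (51.0%), all of them deeper than the Krt8+-like class. Krt8+-like cells were 0.908% of kept WT cells and held 15.7% of the *Cdkn1a* UMIs of the named classes, and in KO they were 10.5% of kept cells and held 60.2%, shares that depend on the size of the class.

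*Cdkn2a*, whose locus (4:89274471-89294653, minus strand) encodes the senescence-associated inhibitor p16 and the p53-stabilizing p19, was sparse everywhere, and counts at the 3' end do not separate the 2 products. It had 9 UMIs in WT Krt8+-like cells (7.23 CPM, 3.31 to 13.7) and 53 UMIs in KO (5.71 CPM, 4.27 to 7.46). AT2-like cells had 0 UMIs in WT, which allows a level of up to 1.08 CPM, and 5 UMIs in KO (0.105 CPM). The KO log2 ratio was 5.77 (4.46 to 7.45), and in WT the ratio to that limit of 3 counts was 2.74, with the exact interval of the ratio beginning at 2.14. A single KO cell held 20 of the 53 UMIs, and without the highest cell on each side the KO ratio was 5.82. The step to the next class, AT1-like in KO (3.57 CPM) and cycling non-epithelial-like in WT (5.17 CPM), lay within counting error.

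Among the feedback genes, *Mdm2* (10:117688875-117710758, minus strand), the ubiquitin ligase that degrades p53, was at 476 CPM (439 to 516) in WT and 266 CPM (255 to 276) in KO Krt8+-like cells, and at 39.9 and 33.4 CPM in AT2-like cells. Its log2 ratios were 3.58 in WT and 2.99 in KO. In WT 1 cell held 105 of the 593 UMIs, and without the highest cell the level was 393 CPM. Ciliated-like cells had 236 and 216 CPM, the second place in both libraries, and in KO only 0.30 log2 units (0.21 to 0.38) below the Krt8+-like class.

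*Ccng1* (11:40748552-40755311, minus strand), cyclin G1, which recruits a phosphatase to *Mdm2*, stood at 464 CPM (427 to 504) and 336 CPM (325 to 348) in Krt8+-like and at 82.1 and 53.4 CPM in AT2-like cells, log2 ratios of 2.50 and 2.66. AT1-like cells followed with 236 and 163 CPM. *Phlda3* (1:135766119-135769136, plus strand), which restrains Akt, had 308 CPM (278 to 340) and 354 CPM (342 to 367) in Krt8+-like cells against 28.1 and 23.0 CPM in AT2-like cells, and fibroblast-like cells came second with 155 and 174 CPM. Both genes were therefore high in the same class, with different classes next in order.

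Of the cell-death genes, *Bax* (7:45461697-45466898, minus strand), the pore former of the mitochondrial pathway, had 392 CPM (358 to 428) in WT and 383 CPM (370 to 396) in KO Krt8+-like cells, and 70.2 and 60.8 CPM in AT2-like cells, which were near the lowest for this gene. Its log2 ratios were 2.48 and 2.66. Macrophage-like cells had 177 and 202 CPM and AT1-like cells 201 and 194 CPM. *Eda2r* (X:97333840-97377216, minus strand), a death receptor of the tumour necrosis factor receptor family, was at 34.5 CPM (43 UMIs) and 20.3 CPM (189 UMIs, 17.5 to 23.5) in Krt8+-like cells. In AT2-like cells it had 3 UMIs in WT, all in 1 cell, and 15 UMIs in KO (0.314 CPM), log2 ratios of 5.00 (3.36 to 7.33, under 50 UMIs) and 6.02 (5.26 to 6.88). Mesothelial-like cells were level with the Krt8+-like class within counting error, at 37.1 and 18.1 CPM.

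*Gdf15* (8:70629393-70632456, minus strand), a secreted stress hormone, was at 309 CPM (279 to 342) in WT and 218 CPM (209 to 228) in KO Krt8+-like cells and at 25.6 and 15.1 CPM in AT2-like cells, log2 ratios of 3.60 and 3.85. It sat in fewer cells than the other members of like level: 75 of 274 WT and 352 of 1635 KO cells of the class had any UMI of it, and 1 KO cell held 137 of 2026 UMIs. Macrophage-like cells were second with 91.0 and 62.0 CPM. Cycling non-epithelial-like cells of the WT library had 89.0 CPM, of which 135 of 310 UMIs came from 1 cell, and 50.5 CPM without it.

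*Trp53inp1* (4:11156431-11174379, plus strand), a cofactor of p53 that also acts in autophagy, was at 357 CPM (324 to 391) and 274 CPM (263 to 285) in Krt8+-like and at 59.7 and 40.5 CPM in AT2-like cells, log2 ratios of 2.58 and 2.76. As with *Mdm2*, ciliated-like cells were second, with 200 and 150 CPM. *Zmat3* (3:32334792-32366014, minus strand), an RNA-binding regulator of splicing, had the smallest step, from 22.7 to 71.5 CPM in WT and from 17.2 to 49.2 CPM in KO, log2 ratios of 1.66 (1.17 to 2.15) and 1.51 (1.34 to 1.68). Mesothelial-like cells were at 49.9 and 52.7 CPM, and neither library separated them from Krt8+-like cells beyond counting error.

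**Figure D2:**
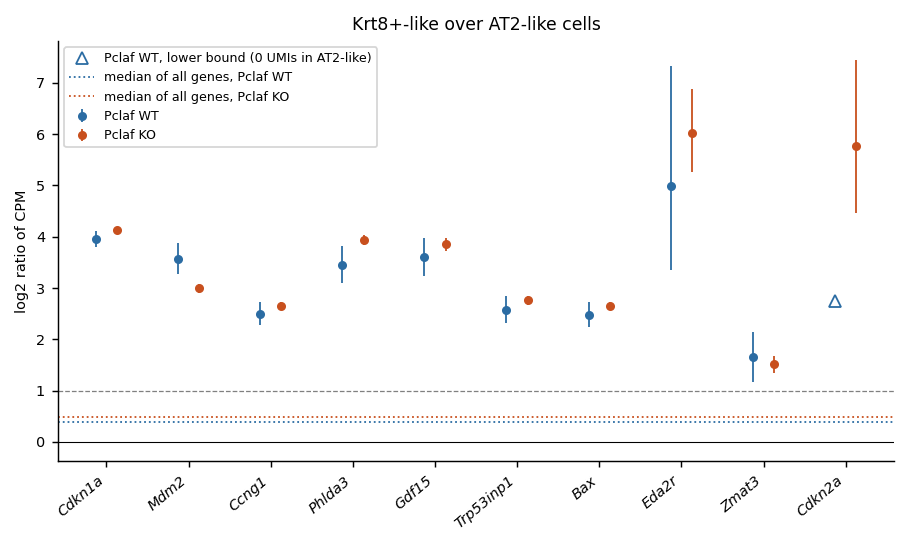
Log2 ratio of CPM, Krt8+-like over AT2-like cells (vertical axis), for each gene in *Pclaf* WT (blue) and *Pclaf* KO (orange), with 95% intervals of counting error. All points lie above the dashed line at 2-fold, the lowest being *Zmat3* at 1.66 and 1.51, and above the medians of all genes at 0.38 and 0.49 (dotted). The triangle, labelled a lower bound, is the ratio of *Cdkn2a* in WT to the limit of 3 counts, and the exact interval of that ratio begins lower. *Eda2r* in WT rests on under 50 UMIs.

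Across the 29 combinations of class and library with at least 50 cells, the level of *Cdkn1a* followed that of *Ccng1* most closely among the members (Pearson r = 0.82 on log2(CPM + 10)). *Bax* (r = 0.73) and *Mdm2* (r = 0.72) came next, and *Zmat3* (r = 0.46) last of the 8 members reaching 20 CPM in at least 1 class besides *Cdkn1a*. Among 12513 genes, the 5 most like *Cdkn1a* were *Cdc34* (r = 0.87), *Thyn1* (r = 0.84), *Dctn3* (r = 0.83), *Ccng1* (r = 0.82) and *Nkx2-9* (r = 0.82). *Cdc34* was at 134 and 131 CPM in Krt8+-like cells and at 31.7 and 23.8 CPM in AT2-like cells. The points share libraries and the Krt8+-like class stands apart in them, so these values describe the order of the classes.

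Within the alveolar classes the level of *Cdkn1a* varied between clusters. Krt8+-like cells formed 2 clusters, a larger one (232 WT and 1282 KO cells) with 2210 and 1937 CPM of *Cdkn1a*, and one of low depth (42 and 353 cells, median 966 and 1249 UMIs) with 1729 and 1307 CPM. Over the 7 AT2-like clusters *Cdkn1a* ran from 53.9 CPM in KO cells of one cluster to 298 CPM in the 64 WT cells of another, so every AT2-like cluster lay below both Krt8+-like ones. Of the AT1-like cells, 438 WT and 201 KO cells lay in a cluster of low depth (median 708 and 849 UMIs), with 526 and 589 CPM of *Cdkn1a*, and the 51 WT and 221 KO cells of the deeper cluster had 788 and 610 CPM. Other members went differently: *Ccng1* was at 278 CPM in the low-depth and 163 CPM in the deeper AT1-like cluster of WT.

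*Cdkn1a* was also higher with each further Krt8+ marker in KO, without regard to clusters. Alveolar cells of all 3 classes were thinned to 1000 UMIs and sorted by how many of the 10 Krt8+ markers had a UMI. Shallower cells were left out, 408 in WT, of which 342 were AT1-like, and 355 in KO. In KO cells *Cdkn1a* went from 199.5 CPM with no marker (4922 cells) through 399, 1059, 1614 and 1784 to 1862 CPM with 5 or more (109 cells). In WT cells it went from 340 CPM (435 cells) through 800 and 1200 to 1956 CPM with 3 markers (91 cells), and then stood at 1658 and 1538 CPM with wide intervals, the last bin holding 13 cells. *Sftpc* ran the other way, from 154191 to 10385 CPM in KO. The AT1 marker *Ager* went from 894 to 5206 CPM with 4 markers in KO, and from 970 to 4237 CPM in WT. With 5 or more markers it was at 3009 CPM in KO and 2308 CPM in WT. As classes, Krt8+-like cells held 1913 (KO) and 1230 CPM (WT) of *Ager*, and AT1-like cells 14110 and 6532 CPM. The bins with many markers are thus not Krt8+-like cells alone, and the part of AT1-like cells in the series was not tested. *Phlda3* went up over the whole range in KO, from 45.1 to 468 CPM, while *Ccng1*, *Bax* and *Trp53inp1* flattened from 3 markers on. *Zmat3* stayed between 18.3 and 29.4 CPM in KO.

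**Figure D3:**
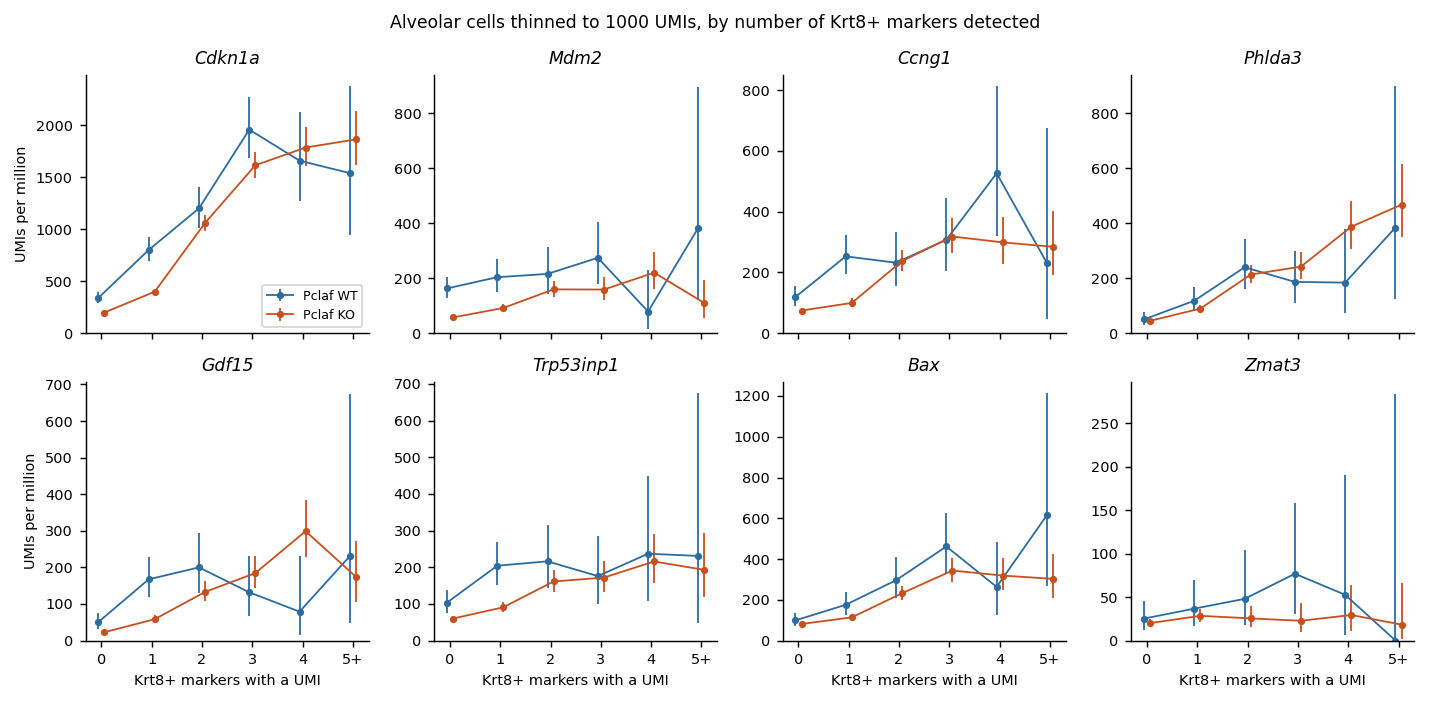
CPM of 8 genes (vertical axis) in AT2-like, AT1-like and Krt8+-like cells thinned to 1000 UMIs, by the number of Krt8+ markers with a UMI (horizontal axis), *Pclaf* WT in blue and *Pclaf* KO in orange, with 95% Poisson intervals. *Cdkn1a* went from 199.5 to 1862 in KO, and the last WT bin rests on 13 cells.

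The members also went together from cell to cell inside a class. Krt8+-like cells, thinned to 1000 UMIs in a separate draw, were divided into those with and without a *Cdkn1a* UMI (157 and 91 WT cells, 922 and 555 KO cells), which had similar depth before thinning (medians of 3957 and 4272 UMIs for WT cells, 5263 and 5985 for KO cells). Of the 6 members with over 80 UMIs on both sides together in each library, *Gdf15* differed most, at 605 against 121 CPM in WT and 342 against 73.9 CPM in KO, log2 ratios of 2.32 (1.42 to 3.37) and 2.21 (1.74 to 2.72). *Phlda3* (1.76 and 1.86), *Mdm2* (1.48 and 1.81), *Trp53inp1* (1.37 and 1.37), *Ccng1* (1.24 and 1.08) and *Bax* (0.92 and 1.22) were all higher in cells with a *Cdkn1a* UMI, with intervals above 0 in both libraries. *Zmat3* (1.28 and 1.61) and *Eda2r* (1.80 and 2.27) rested on few UMIs, and in WT their intervals spanned 0. *Cdkn2a* had 2 UMIs in the WT and 9 in the KO cells so thinned, too few to place.

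The same held at lower levels in AT2-like cells of the KO library, where 490 cells had a *Cdkn1a* UMI and 6176 had none. There *Gdf15* was at 73.5 against 9.07 CPM (log2 ratio 3.02, 2.37 to 3.65), *Phlda3* at 89.8 against 15.4 CPM (2.55) and *Ccng1* at 169 against 38.4 CPM (2.14). In WT macrophage-like cells, 526 of them with a *Cdkn1a* UMI, *Phlda3* differed by 1.69 (0.99 to 2.38) and *Bax* by 0.08 (-0.27 to 0.42). In KO ciliated-like cells *Mdm2* differed by -0.11 (-0.68 to 0.43), although its level was high there. Of the KO fibroblast-like cells, *Mdm2* had a ratio of 3.62, but a single cell gave 36 of the 55 UMIs on the *Cdkn1a* side.

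**Figure D4:**
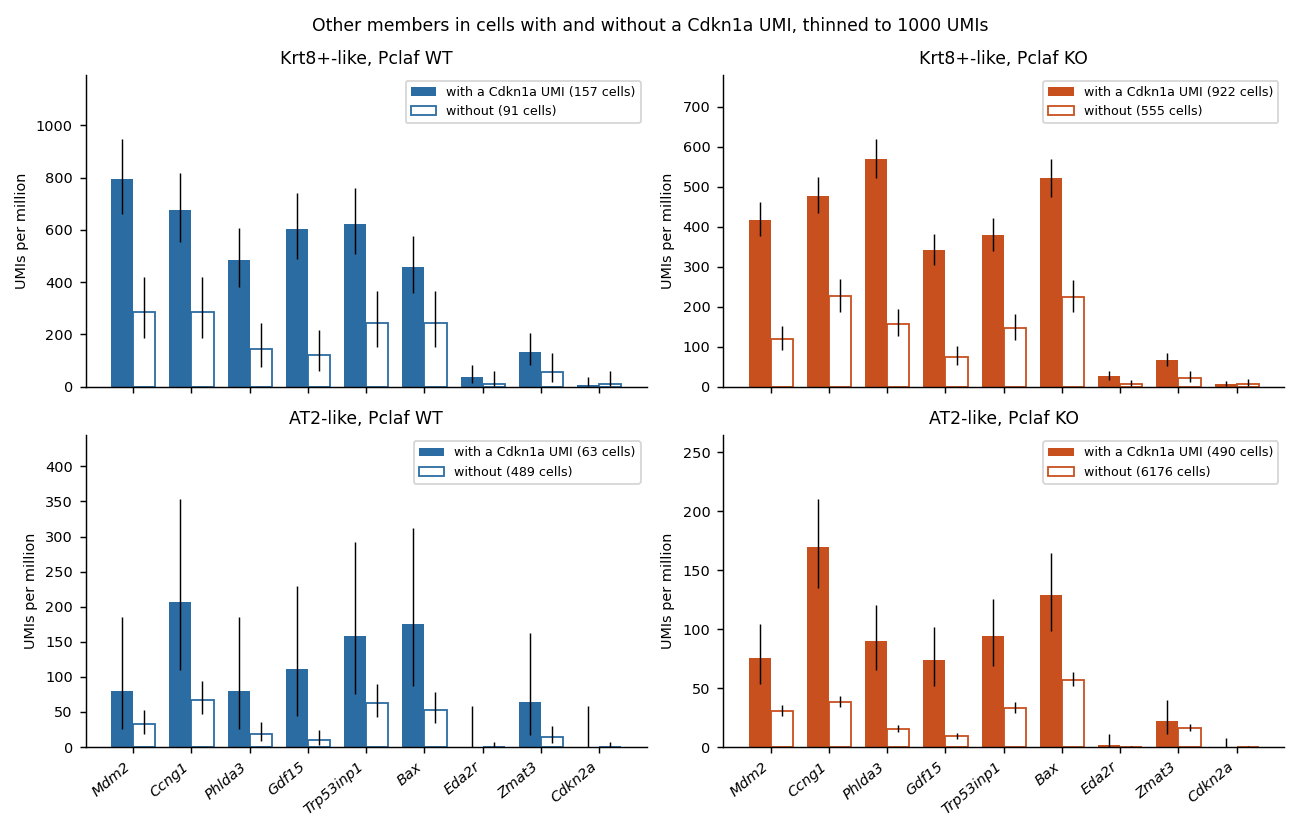
CPM of the other 9 genes (vertical axis) in cells with a *Cdkn1a* UMI (filled bars) and without one (open bars), for Krt8+-like (top) and AT2-like cells (bottom), *Pclaf* WT left and *Pclaf* KO right, all cells thinned to 1000 UMIs, with 95% Poisson intervals. *Gdf15* in KO Krt8+-like cells stood at 342 against 73.9, and *Cdkn2a* was near 0 in all panels.

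A small part of the AT2-like cells was cycling, and in KO their *Cdkn1a* level was like that of cells without a cycling marker. By a gate of at least 3 of 8 cycling markers, chosen after the data were seen, 190 of 6747 KO and 16 of 592 WT AT2-like cells were cycling, against 5 of 1635 KO and 0 of 274 WT Krt8+-like cells. The gate used unthinned cells, and the gated KO AT2-like cells were deeper (median 9736 UMIs) than those without any of these markers (6669 UMIs). AT2-like cells were also deeper than Krt8+-like cells, with medians of 6788 and 5002 UMIs in KO and 4664 and 3782 UMIs in WT. The 190 KO cells had 107 CPM of *Cdkn1a* and the 6170 cells without any of these markers had 109 CPM, a log2 ratio of -0.03 (-0.24 to 0.18). *Trp53inp1* was at 23.1 against 41.4 CPM (-0.84, -1.31 to -0.41) and *Bax* at 78.7 against 58.9 CPM (0.42, 0.17 to 0.66). *Gdf15* (-0.70, -1.46 to -0.02) and *Ccng1* (-0.35, -0.69 to -0.03) were also lower in the gated cells. The intervals of *Mdm2*, *Phlda3* and *Zmat3* spanned 0. *Pclaf*, a gene of cycling cells, was at 122 against 0.655 CPM in these same KO cells.

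Other genes of the pathway, in a list outside the members, were mostly higher in Krt8+-like cells as well. This list was chosen with earlier results of these data known, so it is not independent of them. Of 32 further p53 targets, 22 of 27 with enough UMIs in WT and 23 of 31 in KO were past 2-fold higher in Krt8+-like cells. The share over all genes was 19.5% and 26.1%, and the medians were 1.94 and 2.01 against 0.38 and 0.49 over all genes. The 50 UMIs are those of both classes together. A gene low in AT2-like cells can therefore enter through the Krt8+-like cells, as *Eda2r* and *Cdkn2a* did. The counts for this list and for those below are descriptions only. *Sesn1* in WT was the 1 gene past 2-fold lower. Among the 27 with at least 50 UMIs in each library, the highest by the mean of both were *Sfn* (14-3-3 sigma, which holds cells before mitosis) at 4.29 and 4.52, *Tnfrsf10b* (the TRAIL receptor) at 3.93 and 4.53, and *Psrc1* (a spindle protein) at 3.41 and 3.23. The lowest were *Sesn1*, a stress-response gene that was at 12.9 against 45.0 CPM in WT (-1.81, -2.66 to -1.05) and at 25.7 against 31.1 CPM in KO (-0.27), the repair gene *Ddb2* at -0.43 and -0.07, and *Dcxr* at 0.40 and 0.58.

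Among p53 and its regulators, 1 of 8 in WT and 2 of 10 in KO were past 2-fold higher, at or below the 19.5% and 26.1% of all genes, with medians of 0.72 and 0.48. *Trp53*, the gene of p53 itself, was at 67.5 and 61.7 CPM in Krt8+-like against 13.7 and 15.1 CPM in AT2-like cells (2.30, 1.73 to 2.90, and 2.03, 1.87 to 2.19). *Ppm1d*, a phosphatase that turns p53 signalling off, had 0.90 and 1.02, and *Atr*, a kinase of the damage response, 0.99 and 0.86. *Cop1* (0.37 and 0.11), *Usp7* (0.34 and 0.09) and the kinase *Atm* (0.08 and -0.34) were at the low end.

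Of the other inhibitors of cyclin-dependent kinases, 1 of 2 in WT and 2 of 5 in KO were past 2-fold higher, beside 19.5% and 26.1% of all genes. These are too few genes to read as a result about the list. *Cdkn2b* (p15), the neighbour of *Cdkn2a*, was at 64.3 and 71.6 CPM against 3.24 and 3.33 CPM in AT2-like cells (4.31 and 4.43), while *Cdkn1b* (p27) had -0.22 and 0.16. From the list of senescence-associated secretion and markers, 2 of 5 in WT and 6 of 11 in KO were past 2-fold higher, beside the same shares of all genes. The list was led by *Plaur*, the urokinase receptor, at 170 and 112 CPM against 4.32 and 0.962 CPM (5.30 and 6.86), and *Igfbp7* (1.71 and 2.01). *Lmnb1*, a lamin that is lost in senescent cells, was at 24.9 against 24.1 CPM in WT (0.05, -0.62 to 0.68) and 17.0 against 20.6 CPM in KO (-0.27, -0.53 to -0.03), and *Glb1*, the gene of lysosomal beta-galactosidase, had 0.42 and 0.17. *Hmgb1* had -0.03 and 0.20.

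Beside *Bax*, the BCL2 family and caspases had 0 of 6 in WT and 4 of 9 in KO past 2-fold higher, against 19.5% and 26.1% of all genes. The pore former *Bak1* had 0.67 and 1.26, and the survival genes *Mcl1* 0.97 and 1.05 and *Bcl2l1* 0.92 and 0.51. *Bad* had 0.69 and 0.86, and *Bcl2l11*, a sensor of lost survival signals, -0.33 and -0.63. None of the nuclear-retained RNAs was past 2-fold, with *Malat1* at 0.88 and 0.87, *Neat1* at 0.02 and 0.12, *Kcnq1ot1* at 0.55 and 0.22 and *Xist* at -0.50 and 0.78.

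Between the libraries, the members with enough UMIs differed by less than 2-fold in both alveolar classes. In AT2-like cells 0 of 8 members with at least 50 UMIs were past 2-fold, beside 5.94% of 12371 genes. All 8 were lower in KO, with a median log2 ratio of -0.39 against -0.14 over all genes, and none turned under TMM scaling, which adds 0.23, except *Bax*. The furthest apart were *Gdf15* at 15.1 CPM in KO and 25.6 CPM in WT (-0.76, -1.11 to -0.39), *Ccng1* (-0.62, -0.82 to -0.42) and *Trp53inp1* (-0.56, -0.79 to -0.32). Without the highest cell of each library *Gdf15* came to -0.42 (-0.82 to 0.01), since 1 WT cell held 17 of its 71 UMIs, and *Mdm2* went from -0.26 to -0.05. *Gdf15* was past 2-fold in 5 of 17 settings. *Eda2r*, with 15 UMIs in KO and 3 in WT, had -1.78 (-3.60 to 0.65). The libraries filled the AT2-like clusters differently, and 1 cluster held 195 of the 592 WT but 203 of the 6747 KO cells. *Cdkn1a* was at 108 against 141 CPM (-0.38, -0.53 to -0.23).

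In Krt8+-like cells 0 of 10 members were past 2-fold, beside 4.69% of 10766 genes. Of the 10, 9 were lower in KO, of which *Bax* was higher under TMM scaling, with a median of -0.42 against -0.08 over all genes. *Phlda3* was higher, at 354 against 308 CPM (0.20, 0.05 to 0.36). *Mdm2* had the widest gap (-0.84, -0.97 to -0.71), which was -0.59 (-0.73 to -0.44) without the highest cells. *Eda2r* (-0.76), *Zmat3* (-0.54), *Gdf15* (-0.50), *Ccng1* (-0.46), *Trp53inp1* (-0.38) and *Cdkn1a* (-0.21, -0.27 to -0.15) had intervals below 0, and *Bax* (-0.03, -0.17 to 0.11) and *Cdkn2a* (-0.34, -1.37 to 0.86) did not. *Eda2r* reached 0 without the highest cells (-0.55, -1.07 to 0.02). These intervals hold no variation between animals, and the direction for *Cdkn1a* was the opposite in 5 of 17 settings, with a range of -0.22 to 0.32.

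The 2 libraries differed within the same class in more than these genes. The 9 AT2 markers summed to 19973 CPM in WT and 46629 CPM in KO Krt8+-like cells, with *Sftpc* at 16190 and 38791 CPM and a median of 3782 and 5002 UMIs per cell. Markers of alveolar macrophages, of which *Siglecf* was at 0 in both and Marco in WT, summed to 100 and 15.7 CPM (6 of 8 and 7 of 8 with a UMI), and those of other macrophages to 121 and 24.1 CPM (9 of 9 in both). In AT2-like cells the other-macrophage list summed to 122 and 26.2 CPM. The part of these differences in the ratios of the members was not tested, and genotype, library and cell composition cannot be told apart here.

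**Figure D5:**
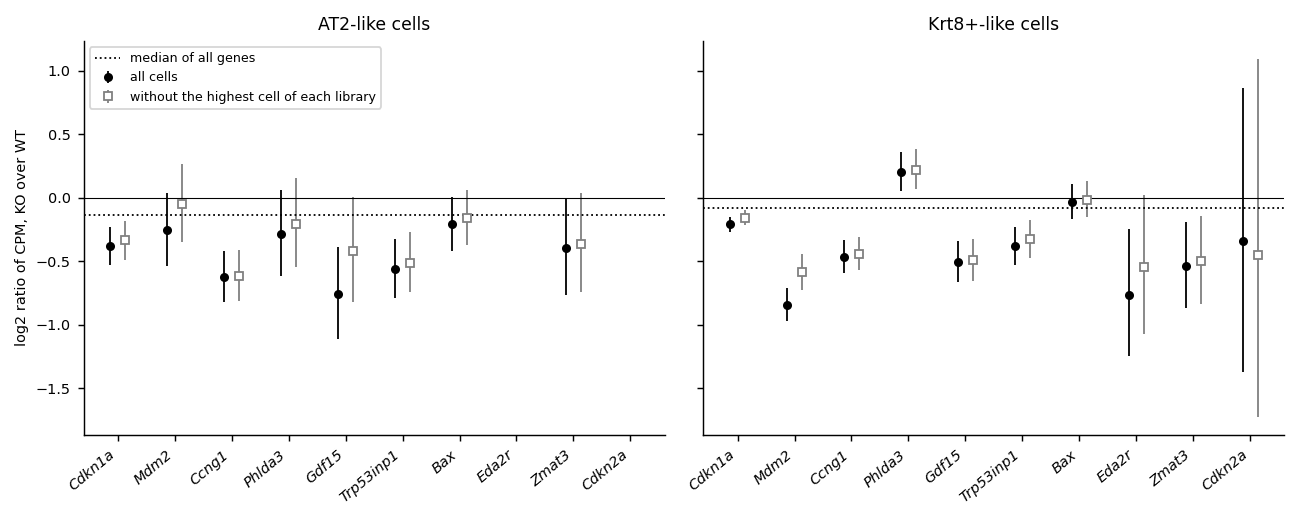
Log2 ratio of CPM, *Pclaf* KO over *Pclaf* WT (vertical axis), for each gene in AT2-like cells (left) and Krt8+-like cells (right), with 95% intervals of counting error. Filled circles are all cells, drawn where the gene had at least 50 UMIs. Open squares leave out the cell that holds most UMIs of the gene in each library and had a lower limit. *Eda2r* and *Cdkn2a* are not drawn in AT2-like cells. The *Cdkn2a* square in Krt8+-like cells rests on 33 UMIs in KO and 6 in WT. No filled point lies past 2-fold, the lowest being *Mdm2* in Krt8+-like cells at -0.84, and the dotted lines at -0.14 and -0.08 are the medians of all genes.

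Outside these classes the members of the 2 libraries were mostly close. In AT1-like cells, where 9.62% of 6235 genes were past 2-fold in either direction, 0 of 7 members were. Of the 7, 5 were lower in KO and 2 higher. *Cdkn1a* was at 607 CPM in KO and 622 CPM in WT (-0.04, -0.20 to 0.14), and at 0.09 (-0.09 to 0.27) without the highest cells. *Zmat3* had the lowest ratio, at 17.8 CPM in KO and 34.6 CPM in WT (-0.95). Without the highest cells it was at -1.05 (-1.93 to -0.16), with 27 UMIs in KO and 21 in WT. *Gdf15* then came to -1.40 (-2.58 to -0.22), with 14 UMIs in each library. The class differed in content: AT2 markers summed to 17997 CPM in WT and 10678 CPM in KO. AT1 markers summed to 17039 and 29637 CPM and other-macrophage markers to 534 and 55.3 CPM, and their part in the ratios was not tested. In ciliated-like cells (5.16% of genes) and airway secretory-like cells (6.22%) 0 of 8 members were past 2-fold. *Phlda3* in airway secretory-like cells came nearest, at 27.8 CPM in KO and 14.8 CPM in WT (0.91, 0.20 to 1.71). Without the highest cell of each library it was past 2-fold, at 1.10 (0.33 to 1.99). *Gdf15* in ciliated-like cells then came to 2.58 (0.05 to 7.90), with 66 UMIs in KO and 1 in WT. In fibroblast-like cells (6.45% of genes) 0 of 9 were past 2-fold, with *Cdkn1a* at 78.6 CPM in KO and 139 CPM in WT (-0.82, -0.95 to -0.70), at median depths of 4508 and 1002 UMIs, and *Ccng1* at 40.6 and 64.9 CPM (-0.68, -0.86 to -0.50). A fibroblast-like cluster of low depth held 2199 of the WT and 558 of the KO cells and the deeper one 1256 and 1995. In the class the other-macrophage markers summed to 1742 CPM in WT and 292 CPM in KO (9 of 9 with a UMI in both), neutrophil markers to 238 and 2.88 CPM and capillary endothelial markers to 350.0 and 21.6 CPM, and their part in the ratios was not tested.

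In endothelial-like cells (8.36% of genes) 1 of 9 members was past 2-fold, *Eda2r*, with 3 UMIs in KO and 96 in WT (-1.06, -3.36 to 0.53). In macrophage-like cells (10.7%) 0 of 8 were, and *Gdf15* was at 62.0 CPM in KO and 91.0 CPM in WT (-0.55, -0.97 to -0.17). *Zmat3* had the lowest ratio there (-0.88). Without the highest cell of each library it was past 2-fold, at -1.41 (-3.30 to -0.04), with 4 UMIs in KO. In T/NK cell-like cells (21.7%) 1 of 8 was past 2-fold, *Gdf15*, with 0 UMIs in the 140 KO cells, which allows up to 6.52 CPM, and 221 UMIs (22.7 CPM) in the 3121 WT cells. A cluster of this class with 297 WT cells and 1 KO cell scored 3.81 for T cell and 3.56 for other-macrophage markers. *Chil3* and *Mrc1* were among its leading genes, and its part in the *Gdf15* ratio was not tested. These classes held few KO cells after the sort, from 118 macrophage-like to 467 endothelial-like, and 2553 fibroblast-like.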

How the data were processed

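As deposited by the authors, each of the 2 libraries is 1 filtered matrix of UMI counts that were not normalized. The labels name Cell Ranger 3.1.0, STAR and GRCm38, while the matrix headers name Cell Ranger 5.0.0. Cells were required to have over 200 and fewer than 5000 genes, with less than 20% of UMIs mitochondrial. Scrublet (scanpy 1.11.5) doublets stayed in, and were taken out only as an alternative. Clustering used Seurat 5.3.0 in R 4.3.3 (2000 variable genes without the listed genes, 10 principal components, 20 neighbors, resolution 0.8, 2 rounds). A cluster was named from at least 3 detected markers of 25 lists, and was called mixed where a second lineage reached 25%, except for the mesothelial name, whose cells carry genes of both epithelial and mesenchymal lineages. Counts were summed per class and library and given as CPM (Python 3.11.15, NumPy 2.4.6, SciPy 1.17.1). TMM (edgeR 4.0.16) and DESeq2 1.42.0 size factors were alternatives, and no count model was fitted. The ratio calculations were tested on simulated data.

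The members, the lists and the rules were chosen with earlier results of these data known. Genes named beside the members are the 3 highest and 3 lowest of each list by the mean Krt8+-like to AT2-like log2 ratio among genes with at least 50 UMIs in each library, the 5 genes most correlated with Cdkn1a among those at 20 CPM or more in at least 1 class, Pclaf, and class markers. One gene that this rule names is not reported here. Other settings for the filters, clustering, scaling and thinning were tried, and leaving out the highest cell, using the larger Krt8+-like cluster alone and the cycling gate were chosen after seeing the data. The rule that calls a cluster mixed was also added after the clusters were seen. Promoter letters are from RefSeq, build GRCm38.p6, and gene positions from the annotation of the same build.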

Additional observations from a re-analysis of the deposited data

Results flagged for a closer look

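Barcodes outside the named classes also held Cdkn1a, the p21 gene, above the limit that a count of 0 allows, and are listed because no comparison used them. The 99 WT barcodes with 5000 or more genes, above the upper limit for cells, had 310.3 CPM, and the 303 such KO barcodes had 441.1 CPM. Cells of epithelial clusters that took no class name had 412.7 CPM in WT (184 cells) and 212.8 CPM in KO (122 cells). These 4 Cdkn1a values lay between AT2-like (141 and 108 CPM) and Krt8+-like cells (2190 and 1895 CPM) of the same library. The cells without a name also held immune transcripts, C1qa at 422 and 151 CPM and Ptprc at 379 and 218 CPM. Their level is therefore not one of epithelial cells alone. The 99 WT barcodes held C1qa at 342, Ptprc at 291 and Sftpc at 3579 CPM, beside 134800 CPM of Sftpc in WT AT2-like cells. The level of these barcodes is not one of alveolar cells alone either, and WT macrophage-like cells had 253 CPM of Cdkn1a. The 303 KO barcodes held C1qa at 28.7, Ptprc at 31.6 and Sftpc at 37254.5 CPM. Of the other cells left out, mixed epithelial clusters had 167 and 131 CPM and barcodes over the mitochondrial limit 130 and 102 CPM. The other mixed clusters had 203 CPM in WT (1403 cells) and 250 CPM in KO (262 cells). The other clusters without a name had 222 CPM in WT (2681 cells) and 130 CPM in KO (201 cells).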

How the results depend on the processing

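No paired analysis was possible because each genotype had 1 library and no test was made. Every member stayed above 0 for Krt8+-like over AT2-like cells under all settings that gave a value, with Cdkn1a between 3.03 and 4.11 in WT and between 3.52 and 4.33 in KO, while Zmat3 in KO was past 2-fold in 15 of 17 settings. Between the libraries, KO was higher in Krt8+-like cells for Phlda3 in all 17 settings, for Bax in 8, for Gdf15 in 3 (range -0.78 to 0.31) and for Mdm2 in 1 (range -0.92 to 0.18). Of all log2 ratios recomputed, 425 stayed within the counting interval and 181 moved outside it, as did 68 of 80 shares at other depths. Class sizes moved with the settings, from 39 to 565 AT1-like and 119 to 274 Krt8+-like cells in WT, and from 445 to 1635 Krt8+-like cells in KO, apart from 217 in the draw of 1 in 6. The cause was not tested in any case below. Members past 2-fold between the libraries in AT2-like cells, 0 as reported, were 2 with no upper limit on genes or with all variable genes used, and 1 without Scrublet doublets, at resolution 1.2 or with 20 principal components. Of the other p53 targets in AT2-like cells, 1 of 29 was past 2-fold between the libraries in the main setting, beside 5.94% of all genes. The count became 5 at resolution 0.4 and 3 with all variable genes, with the per-cell marker gate or with at least 10 UMIs. It was 2 with the mean over cells, and 0 without doublets, with 1 in 6 of the KO cells or with at least 200 UMIs. In Krt8+-like cells 1 of 29 was past 2-fold, beside 4.69% of all genes. This count became 2 with all variable genes. It was 0 with a mitochondrial share under 10%, without doublets, at resolution 0.4 or 1.2, with the marker gate or with cells of at least 1000 UMIs. The shares over all genes at the alternative settings are not given here, so all these counts are descriptions only. The 22 other targets past 2-fold higher in WT Krt8+-like cells were 7 with at least 200 UMIs, a limit that fewer genes reach. The part of that limit in the lower count was not tested. Depth limits Cdkn2a and Eda2r most, and 1 library per genotype limits every difference between genotypes.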

Other observations

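Between the libraries, Trp53inp1 was lower in KO in the 9 classes for which ratios were computed, from -0.57 in endothelial-like to -0.29 in airway secretory-like cells, with Krt8+-like cells at -0.38 and intervals that reached above 0 in airway secretory-like, macrophage-like and T/NK cell-like cells. Phlda3 was higher in KO in 8 of the 9 classes, from 0.17 in fibroblast-like to 0.91 in airway secretory-like cells, and lower in AT2-like cells (-0.29, -0.62 to 0.06). Without the highest cell of each library, Phlda3 was also lower in macrophage-like (-0.02, -0.65 to 0.55) and T/NK cell-like cells (-0.32, -1.65 to 0.75). Its intervals then spanned 0 in AT1-like (-0.21 to 0.63) and ciliated-like cells (-0.09 to 0.73) as well. Classes outside those 9 did not all go this way. Trp53inp1 was higher in KO in mesothelial-like (82.3 against 64.2 CPM), smooth muscle or pericyte-like (62.7 against 52.5 CPM) and monocyte-like cells (21.5 against 18.4 CPM), and Phlda3 was lower in KO in smooth muscle or pericyte-like (68.2 against 78.9 CPM) and monocyte-like cells (0 UMIs against 12.5 CPM), all with overlapping intervals. The classes of a library share its cells' handling and depth, so they are not independent of each other.

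The members did not all follow each other over the 29 class and library points. Mdm2 and Trp53inp1, both second highest in ciliated-like cells, had r = 0.79, Phlda3 and Zmat3 r = 0.78 and Eda2r and Zmat3 r = 0.77, while Bax and Trp53inp1 had r = 0.16. These are descriptions of points that share libraries.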
